A study of Drosophila melanogaster with 12 samples.

Results

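The genes described here are 10 members of the Nimrod family and its relatives among the phagocytosis receptors of *Drosophila* blood: *eater*, *NimC1*, *NimC2*, *NimC3*, *NimC4*, *NimB1*, *NimB2*, *NimB4*, *NimB5* and *draper* (*drpr*). They were chosen by name, as a family, and not by their levels in these libraries, though with earlier results of these data known. They are 10 of the 10392 genes of the merged single-cell table and 10 of the 15310 genes that the tables of the wasp infested larvae list together, and every member was found in both. The proteins of the family carry repeats related to the EGF domain, the NIM repeats. The NimC proteins and Eater span the membrane. Eater and NimC1 are receptors of the plasmatocytes, the phagocytic blood cells (hemocytes) of the larva, and are known for the binding and uptake of bacteria, whereas Draper and NimC4 (Simu, six-microns-under) are known for the uptake of dying cells. The NimB proteins lack a membrane anchor and are secreted.

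The larvae behind the unwounded and the wounded libraries were *Hml>EGFP* (w;Hml-GAL4Δ,UAS-2X EGFP), in which the *Hml* driver marks most, though not every, larval plasmatocyte. Wounding was a needle prick given 96 hr AEL (after egg laying), both groups were bled 24 hr later, and their hemocytes were separated on an Optiprep gradient. Each of these conditions had 4 libraries, with 10X Chromium in replicates 1 and 2 and inDrops in replicates 3 and 4. For the wasp libraries, wild type OreR larvae of 72 hr AEL were exposed to *Leptopilina boulardi* and bled after 24 hr (96 hr AEL) or after 48 hr. The age of the 48 hr larvae is 128 hr AEL in the treatment label and 120 hr AEL in the label of the table and the methods of the study. Both wasp conditions had 3 Drop-seq libraries made without the gradient, and there were no uninfested OreR larvae of either age. Every library was made from larvae that were pooled, and the labels do not say whether the replicates are separate rearings, so p-values measure only the spread between these libraries. Values are CPM, the unique molecular identifiers (UMIs) of a gene per 1000000 UMIs of the cells summed, and cells were never used as replicates.

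The merged table held 19458 cells of 11 libraries, with between 181 and 4013 cells and between 623998 and 17452765 UMIs in a library, and the authors' cluster of each cell: PM1 to PM12 for plasmatocytes, CC1 and CC2 for crystal cells, LM1 and LM2 for lamellocytes and a non-hemocyte cluster. Crystal cells carry the prophenoloxidases of melanization, and lamellocytes are the flat cells that encapsulate wasp eggs. The 48 hr table came without clusters and held 7168 barcodes. Libraries shared at most 3.46% of the cell barcodes of the smaller library, and up to 44 barcodes for a pair. The wasp inf. 24 hr 1 library stood apart with 204 cells kept and a median of 14570 UMIs per cell, and unwounded 4 had 492 cells and a median of 1141 UMIs. The labels of the clusters were checked against marker lists. The plasmatocyte markers summed to between 19250 and 34600 CPM in the plasmatocyte clusters of unwounded libraries, but to between 1013 and 2369 CPM in those of the wasp inf. 24 hr libraries. There the lymph gland progenitor markers (*Tep4*, *dome*, *shg*, *col*) summed to between 794 and 1776 CPM, against 94.4 to 378 CPM in unwounded libraries. The lamellocyte clusters of unwounded 1, 2 and 3 went against their label, with *atilla*, the gene of the lamellocyte antigen L1, at 0, 42.5 and 37 CPM, while the wounded libraries had between 286 and 1459 CPM there and the wasp inf. 24 hr libraries between 1269 and 4174 CPM.

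Of the 10 members, 8 lie in the Nimrod gene cluster on chromosome arm 2L, which spans 13957539 to 14048863 and holds 11 genes of the family with *Hemese* (*He*), the gene of a pan-hemocyte surface glycoprotein (Ensembl positions, Release 6 assembly, BDGP6). From left to right the members are *NimB1* (13963507 to 13965088, plus strand), *NimB2* (13965012 to 13967018, minus strand), *NimB4* (13968280 to 13969976, minus strand), *NimB5* (13970177 to 13972173, plus strand), *NimC1* (13973158 to 13976769, minus strand), *NimC2* (13980126 to 13983269, plus strand), *NimC3* (14019357 to 14020208, minus strand) and *NimC4* (14047582 to 14048863, plus strand). *eater* lies on 3R at 27095867 to 27099679 (minus strand) and *drpr* on 3L at 1715595 to 1731107 (minus strand). The 3' ends of *NimB1* and *NimB2* overlap by 77 bases on opposite strands, and those of *NimB5* and *He* by 78 bases. These protocols count 3' ends, so for these pairs a read in the shared bases can be assigned only by its strand, and the sources used here do not give the strand setting of every count. *NimC2* lies within *rk*, on the other strand, and *NimC4* within *nAChRalpha5*, on the same strand. *NimC3* overlaps *asRNA:CR44849* on the other strand. The span of *drpr* overlaps *CG18171* and *Oseg4* on its own strand and *CG12035* on the other. Strand alone cannot assign a read shared by genes of the same strand.

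The members differed widely in how many UMIs stood behind their values. The merged table held 40751 UMIs of *NimB4*, 38634 of *NimB5*, 32355 of *eater*, 12690 of *NimB1*, 9189 of *drpr*, 7366 of *NimC1*, 2634 of *NimB2* and 984 of *NimC3*. It held 242 UMIs of *NimC4* and 21 of *NimC2*, and *NimC2* did not pass the filter on low counts in any comparison below. No library had more than 6 UMIs of *NimC2* in its plasmatocyte clusters, and its level was at most 0.903 CPM. UMI totals are numbers of molecules captured near a 3' end, and levels are compared below between libraries and cells for 1 gene at a time.

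Among the bacterial receptors in the plasmatocyte clusters, *eater* stood at 522, 819, 472 and 417 CPM in unwounded 1 to 4 and at 1015, 997, 517 and 604 CPM in wounded 1 to 4. It was at 93.2, 153 and 137 CPM in the wasp inf. 24 hr libraries, below each library of the other conditions. *NimC1*, the receptor recognized by the P1 antibody that is used to mark plasmatocytes, was at 130, 114, 81.9 and 42.8 CPM in unwounded 1 to 4 and at 132, 113, 97 and 65.1 CPM in wounded 1 to 4. Its wasp inf. 24 hr values of 33.8, 122 and 113 CPM lay within or just under that range. *NimC3*, a less studied transmembrane member, was at 32.5 and 16.3 CPM in unwounded 1 and 2 and at 6.34 and 5.35 CPM in unwounded 3 and 4. The wounded libraries had 26, 19.6, 4.62 and 2.62 CPM of it, and the 24 hr libraries 9.13, 17.1 and 16.5 CPM. The gap in *NimC3* thus ran between technologies, with a mean of 23.6 ± 7.14 CPM (SD, n = 4) in 10X Chromium and 4.73 ± 1.58 CPM (SD, n = 4) in inDrops. *NimC1* was split the same way, at 113 to 132 CPM in 10X Chromium and 42.8 to 97 CPM in inDrops.

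Of the receptors for dying cells, *drpr* was at 385, 195, 147 and 116 CPM in the plasmatocyte clusters of unwounded 1 to 4 and at 332, 230, 175 and 163 CPM in wounded 1 to 4. At 24 hr after infestation it was at 11.9, 27.4 and 20.5 CPM. It was lower there than in any library of the other conditions. Among those, the 10X Chromium libraries (195 to 385 CPM) lay above the inDrops libraries (116 to 175 CPM). *NimC4* was at 3.25, 2.97, 2.99 and 7.13 CPM in unwounded 1 to 4, from 3, 10, 16 and 4 UMIs, and at 4.29, 3.35, 4.89 and 5.4 CPM in wounded 1 to 4. The plasmatocyte clusters of the 24 hr libraries held 1 UMI of *NimC4* in all.

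The secreted members took different courses. *NimB4*, which is known to help plasmatocytes clear apoptotic cells, was at 901, 1583, 384 and 230 CPM in unwounded 1 to 4, at 1133, 1460, 321 and 293 CPM in wounded 1 to 4, and at 133, 251 and 286 CPM at 24 hr. Its mean was 1269 ± 310.2 CPM (SD, n = 4) in 10X Chromium and 307 ± 63.8 CPM (SD, n = 4) in inDrops. *NimB5*, known as a secreted factor of the fat body that limits hemocyte numbers and adhesion, varied less than *NimB4*. Its levels were 433, 535, 632 and 663 CPM in unwounded 1 to 4, 478, 591, 685 and 595 CPM in wounded 1 to 4, and 406, 289 and 569 CPM at 24 hr. The inDrops libraries (595 to 685 CPM) lay above the 10X Chromium libraries (433 to 591 CPM). *NimB1* was at 95.2, 134, 73.3 and 39.2 CPM in unwounded 1 to 4, at 62.8, 91.7, 52.2 and 41.3 CPM in wounded 1 to 4, and at 387, 342 and 311 CPM at 24 hr. It was the member whose 24 hr libraries all lay above the others. *NimB2* was at 49.8, 51, 76.7 and 41 CPM in unwounded 1 to 4, at 57.1, 72.5, 71.7 and 57.1 CPM in wounded 1 to 4, and at 9.13, 4.64 and 5.66 CPM at 24 hr. *NimB1* was thus higher at 24 hr, and its neighbor *NimB2* lower. Whether the overlap of their 3' ends has a part in this was not tested. *NimB3*, which lies in the same cluster and overlaps no other gene, was lower too. Its mean was 11.08 CPM at 24 hr, against 124.7 CPM in unwounded libraries.

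The wasp inf. 24 hr libraries differ from the unwounded ones also in technology, strain, age, cell isolation and annotation. These cannot be told apart, so their levels are given as a description and no test was made. *Hml*, a plasmatocyte marker, moved with *eater* and *drpr*, with 5029 to 8798 CPM in the plasmatocyte clusters of unwounded libraries and 669 to 1330 CPM at 24 hr. *He* moved the other way, from 274 to 796 CPM in unwounded libraries to between 1504 and 2069 CPM.

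**Figure D1:**
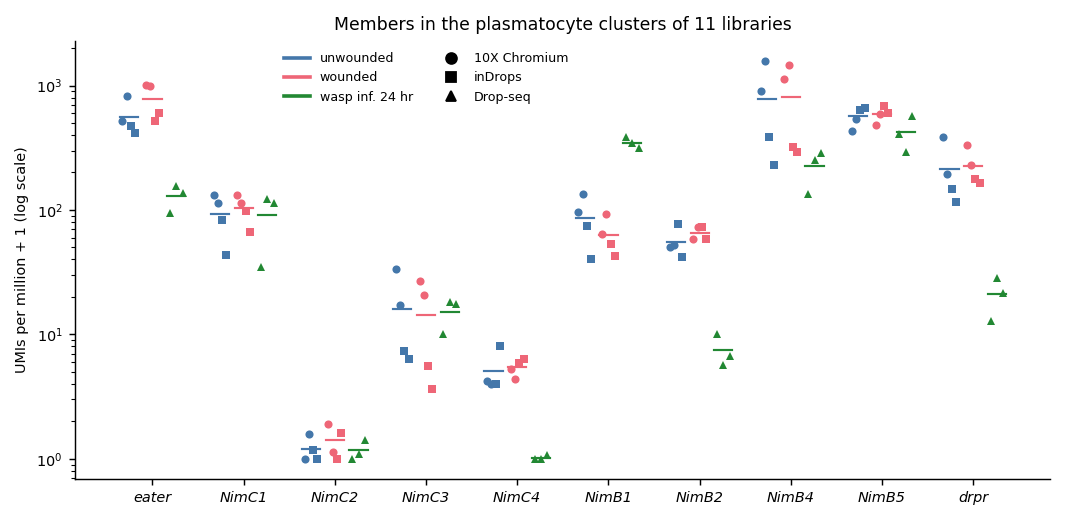
Level of each member in the plasmatocyte clusters, as CPM + 1 on a log axis, with 1 point per library, colors for conditions, symbols for technologies and bars for the mean of a condition. Unwounded and wounded libraries overlap for every member, and the wasp inf. 24 hr libraries lie lower for eater (93.2 to 153 CPM) and drpr (11.9 to 27.4 CPM) and higher for NimB1 (311 to 387 CPM). Among unwounded and wounded libraries NimC1, NimC3, NimB4, NimB5 and drpr separate by technology.

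The share of plasmatocytes with at least 1 UMI was compared after each cell was thinned to 1000 UMIs, which left out up to 302 of the 641 plasmatocytes of a library (unwounded 1). For *eater* the share was between 33.4% and 58.7% in unwounded libraries and between 37.5% and 64.6% in wounded libraries, while it was 6.41%, 13.6% and 12.1% at 24 hr. Without thinning it was between 36.2% and 91.9%, between 69.2% and 95%, and 50%, 46% and 34.1%. For *drpr* the thinned share was between 9.51% and 28.6% in unwounded libraries and between 2.1% and 2.56% at 24 hr, and the unthinned share between 13.2% and 56.8% and between 6.73% and 13.6%. In the non-hemocyte cells, 26 cells of wasp inf. 24 hr 1 with a median of 8752 UMIs, no cell had a UMI of *eater*, *NimC1*, *NimB4* or *NimB5*, thinned or not. The share with *drpr* there was 3.85% thinned and 30.8% unthinned. With 26 cells of that 1 library it is too coarse to place the 24 hr plasmatocytes above or below cells outside the blood lineage. The median plasmatocyte of that library held 12910 UMIs.

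The lamellocyte and crystal cell clusters were then set beside the plasmatocyte clusters of the same library. Since the authors made the clusters from the expression of these cells, the differences are a description, on the log2(CPM + 1) scale. The 11 libraries include unwounded 1, 2 and 3, whose lamellocyte clusters held little or no *atilla*. In the lamellocyte clusters *eater* was lower in 9 of 11 libraries, with a mean difference of -0.57 ± 0.52 (SD, n = 11), and *NimB4* in 10 of 11, with -0.70 ± 0.63. *NimB1* was lower in 8 of 11 libraries (-0.56 ± 0.58), *NimB2* in 9 of 11 (-0.59 ± 0.65) and *NimC3* in 6 of the 9 libraries where it had UMIs (-0.58 ± 0.83). The exceptions for *NimB1* were unwounded 2, 3 and 4 (0.004, 0.28 and 0.44), and for *NimB2* unwounded 2 and 4 (0.29 and 0.38). For *eater* they were unwounded 1 (0.13) and wasp inf. 24 hr 1 (0.05). *NimC1* and *drpr* showed no common direction, with differences of -0.19 ± 0.73 and 0.11 ± 0.61. *NimC4* had 0 UMIs in 6 libraries, in each of which the limit lay above the level in plasmatocytes, so no mean is given. *NimB5* was level between the classes (-0.01 ± 0.24, higher in 6 and lower in 5 libraries), while *He* was higher in the lamellocyte clusters of 11 of 11 libraries (0.31 ± 0.23).

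The cells behind these averages were not alike. LM2, the smaller lamellocyte cluster, had at least 10 cells in 6 libraries, and there *eater* was lower than in the plasmatocyte clusters in 6 of 6 libraries. In 2 of them it had 0 UMIs, so that the mean depends on the pseudocount: the difference was -3.76 ± 4.02 (SD, n = 6) on the log2(CPM + 1) scale, -2.26 ± 2.05 with the zeros set to the limit that a count of 0 allows, and -1.33 ± 1.43 (n = 4) over the other libraries. The wounded 1 cells of LM2 held 0 UMIs of *eater* among 150212 UMIs, which allows up to 20 CPM (3 counts, counting error only), against 1015 CPM in the plasmatocytes of the same library. The wasp inf. 24 hr 2 cells held 0 UMIs too (up to 23.6 CPM, against 153 CPM), and the wasp inf. 24 hr 3 cells held 10 UMIs (12.4 CPM against 137 CPM). The LM2 cells of the inDrops libraries kept far more of it, with 438, 338 and 258 CPM in unwounded 3, wounded 3 and wounded 4, against 472, 517 and 604 CPM. *NimB4* (-1.86 ± 1.89) was also lower in 6 of 6 libraries, and *NimB1* (-2.02 ± 1.58) in 5 of 6. *NimC1* was lower in 5 of 6 (-1.76 ± 1.60 with its 1 zero at the limit), and *NimB2* in the 4 libraries where it had UMIs (-0.56 ± 0.55). *NimC3* had 1 UMI in LM2 in all, and in 4 of its 5 libraries at 0 the limit lay above the level in plasmatocytes, so a difference was not detectable there at this depth. *NimB5* did not share this, with -0.00 ± 0.57, and *He* was 0.82 ± 0.48 higher in 6 of 6 libraries. In LM1, which holds most cells of the class, *eater* was 0.43 ± 0.43 lower (9 of 11 libraries), and the means of *NimB5* and *drpr* were -0.00 ± 0.21 and 0.18 ± 0.52.

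In the crystal cell clusters *NimC1* and *drpr* were lower than in plasmatocytes in 10 of 10 libraries, by -1.29 ± 0.94 and -0.76 ± 0.70 (SD, n = 10). The lowest *NimC1* value there was 15.4 CPM (wounded 2, against 113 CPM in its plasmatocytes) and the highest 85.6 CPM (wasp inf. 24 hr 2, against 122 CPM). *eater* (-0.67 ± 0.63) and *NimB5* (-0.48 ± 0.33) were lower in 9 of 10 libraries, and *NimB4* (-0.44 ± 0.56) in 8 of 10. The difference of *eater* was -1.81 to -0.69 in 10X Chromium and -0.53 to -0.25 in inDrops. *NimB1* (-0.60 ± 0.89) and *NimB2* (-0.27 ± 0.60) varied in sign. *NimC3* and *NimC4* rested on 0 to 10 UMIs in a library. *NimC3* was lower in 5 of the 6 libraries where it had UMIs and *NimC4* in 2 of 4, and in each library at 0 the limit lay above the level in plasmatocytes. *NimA*, a gene of the same cluster on 2L, went the other way, with a mean difference of 1.92 ± 1.86 (higher in 6 of 10 libraries, lower in 2), from at most 10 UMIs in the crystal cells of a library.

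**Figure D2:**
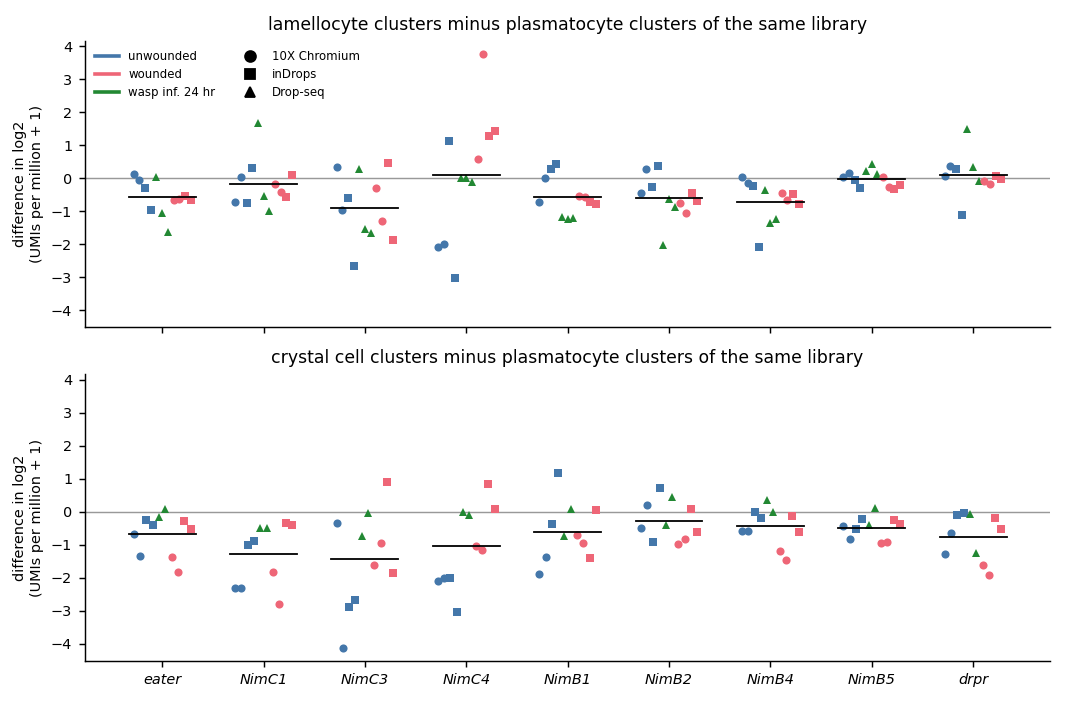
Difference in log2(CPM + 1) between the lamellocyte (top) or crystal cell (bottom) clusters and the plasmatocyte clusters of the same library, with 1 point per library and a bar for the mean, and colors and symbols for condition and technology. The points of NimB5 in lamellocytes lie close to 0 (mean -0.01), and every point of NimC1 and drpr in crystal cells lies below 0.

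The plasmatocyte clusters also differed among themselves. In PM3 *NimC1* and *drpr* were higher than in the other plasmatocytes of the same library in 9 of 9 libraries, by 1.18 ± 0.96 and 0.78 ± 0.97 (SD, n = 9) on the log2 scale, and *eater* in 8 of 9, by 0.48 ± 0.70. In PM4 *NimC1* was lower in 8 of 8 libraries (-1.58 ± 1.46), whereas *eater* was lower in 4 and higher in 4. In PM5 *eater* (-0.69 ± 0.52) and *NimB4* (-0.68 ± 0.38) were lower in 9 of 9 libraries. *NimB5* stayed within 0.18 of the other plasmatocytes in the mean of each of PM1 to PM5, PM7 and PM8, and was -0.44 ± 0.28 (SD, n = 5) in PM6. Its mean was also lower in PM9 to PM11, with -0.74 ± 1.58 (lower in 6 of 7 libraries) in PM10, -0.34 ± 0.94 (3 of 6) in PM11 and -0.29 ± 1.17 (3 of 8) in PM9.

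The genes whose pattern across clusters was most like that of a member were ranked by Spearman's rho across the clusters of a library with at least 20 cells, averaged over 8 libraries with 8 to 14 such clusters each. The clusters of a library share its depth and technology, so rho is a description. For *eater* they were *regucalcin* (mean rho 0.836), *NimB4* (0.822) and *Hml* (0.819), and for *NimB4* they were *eater* (0.822), *Hml* (0.812) and *Glt* (0.804). *NimC1* was most like *Sap-r* (0.612), *Lamp1* (0.590), a lysosomal membrane protein gene, and *CG42711* (0.589). *drpr* shared the first 2 of these, after *Meltrin* (0.615), with 0.591 for *Sap-r* and 0.587 for *Lamp1*. The first gene was *Hml* for *NimB5* (0.632), *Sec61alpha* for *NimB1* (0.556), *Idgf6* for *NimB2* (0.526), *Spn27A* for *NimC3* (0.563) and *RhoGAP16F* for *NimC4* (0.470 over 7 libraries). In single libraries rho ran from 0.657 to 0.963 for *eater* with *regucalcin*, but from -0.0714 to 0.993 for *NimC1* with *CG42711*. It ran from 0.105 to 0.902 for *NimC3* with *Spn27A* and from -0.0608 to 0.914 for *NimC4* with *RhoGAP16F*. These genes are the highest of 5061 ranked, so the lower means are to be read with care.

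Wounding was compared with the unwounded state by edgeR's quasi-likelihood test on UMIs summed per library, with technology as a covariate and Benjamini-Hochberg adjustment over all genes tested, where an adjusted p under 0.05 is a call. This fit did not use the pairing of the libraries by replicate number, so calls with that number as a block are given beside it. Unless another setting is named, fold changes here and below come from fits scaled with edgeR's TMM factors. They can therefore differ from the ratios of the CPM given beside them, which are not scaled in this way. In the plasmatocyte clusters 0 of the 9 members tested were called, and 0 had an unadjusted p under 0.05, where 0.136% of the 7379 genes tested were called. DESeq2 called 0 members too, with 2 at an unadjusted p under 0.05, as did the fit with the replicate number as a block. *eater* had a log2 fold change of 0.42 ± 0.20 (SE, 95% interval -0.03 to 0.86, adjusted p = 0.9997) and *NimB1* of -0.50 ± 0.23 (-1.01 to 0.01, adjusted p = 0.9997). The intervals of *NimB5* (-0.38 to 0.42), *NimB4* (-0.53 to 0.51) and *drpr* (-0.45 to 0.66) leave room for changes of about that size in either direction. Genes called higher in the same fit included *atilla* (3.70 ± 0.56, adjusted p = 0.0423) and *Tep2*, which encodes a thioester-containing protein known as an opsonin (3.32 ± 0.41, adjusted p = 0.012). *Tep2* was 1 call among 13 tested genes of other phagocytosis receptors and opsonins (DESeq2 called 2). In edgeR 0 of 10 engulfment signaling genes were called (0 at an unadjusted p under 0.05, and 1 by DESeq2, which called 0), and 0 of 8 phagosome genes (0 at an unadjusted p under 0.05 by either tool, and 0 called by DESeq2). Over all hemocytes, where fewer cells of a type and less RNA per cell cannot be told apart, 0 of 9 members were called by edgeR and 0 by DESeq2 (2 at an unadjusted p under 0.05 by each), with 0.326% of all tested genes called. Those 2 were *NimB1* (-0.59 ± 0.23) and *NimC4* (1.11 ± 0.41), both at an adjusted p of 0.9989 by edgeR. In the crystal cell clusters 0 of 7 were called by edgeR or DESeq2, with 0 at an unadjusted p under 0.05, and 0.0764% of all tested genes.

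In the lamellocyte clusters *NimB1* was called lower in wounded than in unwounded libraries by the main fit, a call that many alternatives did not keep. It stood at 57.5, 134, 89.5 and 53.5 CPM in unwounded 1 to 4, the last from 1 UMI, and at 42.9, 61.1, 31 and 23.6 CPM in wounded 1 to 4, so that the groups overlapped while each wounded library lay below the unwounded library of the same number. The log2 fold change was -1.24 ± 0.32 (SE), an adjusted p of 0.0473, and it was the only call among 8 members tested, where 0.109% of the 5509 genes tested were called lower. The call was lost with DESeq2 (-1.26, adjusted p = 0.0921), without technology as a covariate (-1.18, adjusted p = 0.693), and within the 10X Chromium (-1.03) or the inDrops libraries (-1.64) alone. It was also lost without unwounded 2 (-1.01), unwounded 3 (-0.93), unwounded 4 (-1.29) or wounded 1 (-1.16), with adjusted p between 0.0602 and 0.711.

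*NimC4* (*simu*) was at 0, 0, 7.79 and 0 CPM in the lamellocyte clusters of unwounded 1 to 4 and at 6.98, 58.4, 13.4 and 16.1 CPM in wounded 1 to 4. The wounded values came from 7, 63, 16 and 13 UMIs and the unwounded ones from 0, 0, 4 and 0 UMIs, and the groups overlapped through unwounded 3. The counts of 0 allow up to 15.7, 3.98 and 161 CPM in unwounded 1, 2 and 4 (3 counts of each total), so in unwounded 4 the depth could not show the wounded levels. The log2 fold change of 3.05 ± 0.89 (SE) was not called (adjusted p = 0.104), but it passed without the filter on low counts and without unwounded 3 (7.49), wounded 1 (3.48), wounded 3 (3.2) or wounded 4 (3.09). It stayed above the threshold without wounded 2, which held 63 of the UMIs (1.77, adjusted p = 0.724). With the replicate number as a block *NimC4* was called (3.47, adjusted p = 2.446e-06), among 3.71% of genes called higher, and *NimB1* remained called (-1.12, adjusted p = 0.0016), among 0.876% called lower. By DESeq2 the adjusted p of *NimC4* was 0.425. The counts of calls over all genes also grew with the block, from 10 to 106 in plasmatocyte, from 25 to 153 in all, from 99 to 272 in lamellocyte and from 2 to 31 in crystal cell clusters, with 0 members called in the first, second and last of these. The clusters compared differed in their cells. The unwounded lamellocyte clusters held 68, 113, 143 and 13 cells and lamellocyte markers at 502 to 8132 CPM, and the wounded ones 206 to 368 cells and 4573 to 11350 CPM. In the main fit 93 of all 5509 genes tested were called higher. Of the 10 lamellocyte markers 5 were called higher (*ItgaPS4* first, 7.67), as were 4 of 12 other phagocytosis receptors and opsonins (*Tep2* first, 4.10). Both edgeR and DESeq2 called 0 of 10 engulfment signaling genes (1 at an unadjusted p under 0.05 by each) and 0 of 8 phagosome genes (0 by each). The part of this shift in cells in the results on *NimB1* and *NimC4* was not tested.

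**Figure D3:**
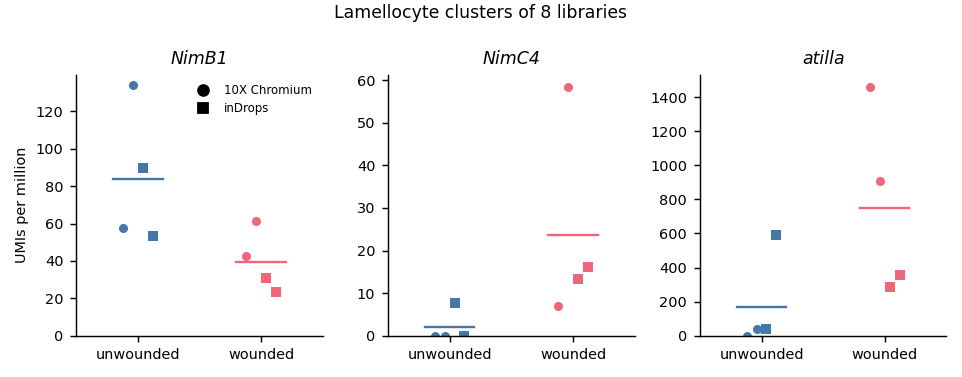
Level of NimB1, NimC4 and atilla in the lamellocyte clusters of 4 unwounded and 4 wounded libraries, in CPM on a linear axis that starts at 0, with bars for the means and symbols for technologies. For NimB1 the wounded libraries (23.6 to 61.1 CPM) reach lower than the unwounded ones (53.5 to 134 CPM) but overlap them. NimC4 is held by 4 of 4 wounded libraries, where 3 of 4 unwounded libraries are at 0.

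The lamellocytes of infested larvae were studied by the UMIs of *atilla* per cell, which is no member and was not used to choose the members. At 24 hr 44, 112 and 354 of 204, 2003 and 4061 cells had 5 or more *atilla* UMIs, and 130, 1775 and 3320 had 0. At 48 hr 1130, 1451 and 2226 of 1867, 2055 and 3113 cells had 5 or more and 462, 358 and 375 had 0. Of the 510 cells with 5 or more at 24 hr, 79.4% were in the authors' lamellocyte clusters, as were 6.18% of the 5225 cells with 0. At 48 hr the lamellocyte markers summed to between 33370 and 37030 CPM in the cells with 5 or more and to between 895 and 1334 CPM in those with 0. The cells with 0 are a mixture, in which the plasmatocyte markers summed to between 4145 and 6521 CPM and the crystal cell markers to between 1579 and 1779 CPM at 48 hr. Cells with 5 or more were also deeper, with medians of 9124, 8726 and 8721 UMIs against 3752, 3927 and 3912, so each contrast was repeated with every cell thinned to 2000 UMIs. Cells with fewer UMIs were left out there, and the classes were taken again from the thinned counts. Depth and the cells of a class thus changed together and cannot be told apart.

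At 48 hr *eater* was at 343, 360 and 511 CPM in the cells without *atilla* and at 24.6, 20.6 and 53.3 CPM in the cells with 5 or more. In every library the *atilla* cells held far less of it. *NimC1* was at 730, 824 and 1061 CPM without *atilla* and at 110, 91 and 180 CPM with 5 or more, and *NimC3* at 51.5, 37.7 and 54.8 CPM and at 1.43, 2.09 and 3.86 CPM. For the 3 receptors the classes did not overlap, and in edgeR, with the library as a block, *eater* was 9.39-fold lower in *atilla* cells (log2 -3.23 ± 0.15, adjusted p = 4.134e-13), *NimC1* 5.08-fold (-2.35 ± 0.13, adjusted p = 4.827e-12) and *NimC3* 13.7-fold (-3.78 ± 0.23, adjusted p = 1.369e-11). *NimB4*, at 332, 432 and 458 CPM against 54.4, 48.4 and 93.5 CPM, was 4.6-fold lower, and *NimB1*, at 202, 215 and 206 CPM against 47.4, 35.6 and 42.6 CPM, was 3.58-fold lower. The loss of *drpr* was smaller. It was at 88.5, 104 and 149 CPM without *atilla* and at 45.1, 40.8 and 63.7 CPM with 5 or more. By the TMM-scaled fit it was 1.63-fold lower (-0.71 ± 0.12, adjusted p = 2.377e-05).

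The remaining secreted members went the other way. *NimB5* was at 248, 234 and 269 CPM in cells without *atilla* and at 464, 488 and 513 CPM in cells with 5 or more, 2.71-fold higher (log2 1.44 ± 0.11, adjusted p = 6.127e-10). *NimB2* was at 14.5, 12.8 and 11.1 CPM and at 47.8, 43.2 and 14.7 CPM, 3.63-fold higher (1.86 ± 0.20, adjusted p = 7.467e-08). The third 48 hr library held less of it in *atilla* cells than the other two did. *He*, whose 3' end overlaps that of *NimB5*, was 1.08 ± 0.11 higher on the log2 scale (adjusted p = 3.448e-08), and *NimB3*, a NimB gene of the same cluster, 3.12 ± 0.47 lower. The part of the overlap in the values of *NimB5* and *He* was not tested.

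All 8 members that could be tested at 48 hr were thus called, 2 higher and 6 lower, where 30.7% of the 8177 genes tested were called higher and 32.4% lower. *NimC2* and *NimC4* did not pass the filter, with at most 4 UMIs of either in a library and class. Thinned to 2000 UMIs a cell, the 8 calls and directions remained, with *eater* at -3.92, *drpr* at -0.91 and *NimB2* at 1.5. Without the TMM factors the median of all genes shifted by -0.48 and the split of all calls from 2509 higher and 2652 lower to 1391 higher and 4383 lower, and the 8 members kept their calls and directions, with *NimB5* at 0.96 and *NimB2* at 1.41. The mean levels of *eater*, *NimC1*, *NimC3* and *NimB4* were close in cells with 0 and with 1 *atilla* UMI (405 and 414 CPM for *eater*, 872 and 878 CPM for *NimC1*), and were lower in each class of more *atilla* UMIs. *eater* went from 343, 360 and 511 CPM at 0 to 86.8, 84 and 356 CPM at 5 to 9 and 17.6, 14.1 and 35.9 CPM at 20 or more, while *NimB5* went from 248, 234 and 269 CPM through 320, 206 and 412 CPM to 482, 513 and 522 CPM. *NimB2* did not rise in steps, with 6.2, 0 and 8.71 CPM at 5 to 9 and 8.32, 7.85 and 2.77 CPM at 10 to 19, and 52.8, 47.2 and 15.6 CPM at 20 or more.

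**Figure D4:**
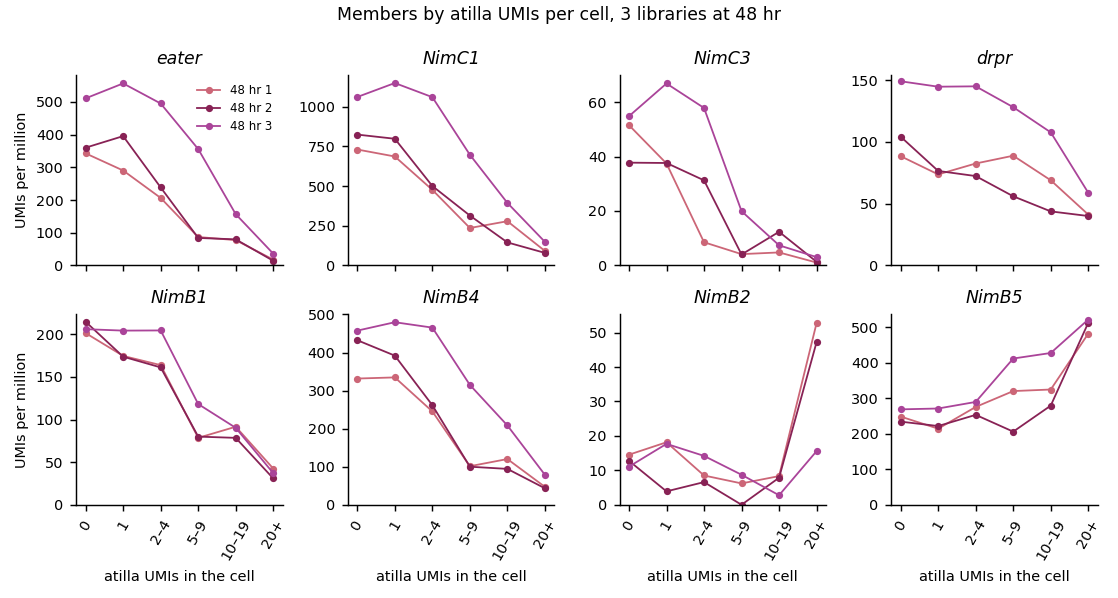
Level of 8 members at 48 hr after infestation in cells grouped by their atilla UMIs, in CPM on linear axes that start at 0, with 1 line for each of the 3 libraries. eater falls from 343, 360 and 511 CPM at 0 atilla UMIs to 17.6, 14.1 and 35.9 CPM at 20 or more, NimB5 rises to 482, 513 and 522 CPM, and NimB2 is high only at 20 or more.

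Other genes of phagocytosis were called in both directions at 48 hr. Of 14 tested phagocytosis receptors and opsonins outside the family 9 were called higher in *atilla* cells and 3 lower, with *Itgbetanu*, an integrin subunit known for the uptake of bacteria and apoptotic cells, first among the higher (log2 4.05) and *crq*, the CD36-related receptor Croquemort, first among the lower (-0.51). Of 10 engulfment signaling genes 7 were called higher (*Rac2* first, 2.56) and 2 lower (*Pvr* first, -2.37), and of 8 phagosome genes 6 higher (*Rab7* first, 1.59) and 1 lower (*cathD*, -1.18). Of 7 plasmatocyte markers 6 were called lower (*Pxn* first, -3.78), and of 6 crystal cell markers 6 (*PPO2* first, -5.47). The list medians were 1.00 for the other receptors, 0.78 for engulfment signaling, 0.84 for the phagosome and -2.02 for the 8 members, beside -0.01 for all genes tested. *crq* and *Sr-CI* are in both the receptor list and the plasmatocyte list. Without the TMM factors these values are lower by about the shift given above.

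At 24 hr the same contrast was smaller. *NimB1* was at 291, 297 and 290 CPM in cells without *atilla* and at 128, 114 and 154 CPM in cells with 5 or more, 2.21-fold lower (log2 -1.14 ± 0.13, adjusted p = 0.00107), and *NimC3*, at 10.5, 14.5 and 15.8 CPM against 3.87, 3.45 and 3.8 CPM, was 3.8-fold lower (-1.93 ± 0.28, adjusted p = 0.00318). For these members the classes did not overlap. *eater* was at 71.6, 128 and 122 CPM and at 63.8, 84.8 and 71 CPM (-0.56 ± 0.15, adjusted p = 0.0307), and *NimB4* at 94, 210 and 254 CPM and at 83.1, 107 and 164 CPM (-0.63 ± 0.17, adjusted p = 0.0312). *NimB5* was higher in *atilla* cells, at 460, 418 and 710 CPM against 312, 275 and 508 CPM (0.55 ± 0.08, adjusted p = 0.00354). *drpr*, at 24.2, 50.3 and 26.9 CPM against 17.6, 23.9 and 16.9 CPM, was higher too (0.78 ± 0.16, adjusted p = 0.0141). *NimC1* (-0.37 ± 0.12, adjusted p = 0.0608) and *NimB2* (-1.09 ± 0.42, adjusted p = 0.103, from 2, 3 and 6 UMIs in *atilla* cells) were not called. In all, 2 members were called higher and 4 lower of 8 tested, where 14.5% of the 6725 genes tested were called higher and 11.4% lower.

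Thinning, which changed both the depth and the cells of the classes, changed the picture at 24 hr. With every cell thinned to 2000 UMIs the difference was -1.60 for *eater* and -1.54 for *NimB4*, and *NimC1* was called (-1.41, adjusted p = 0.00209), while *drpr* was not (0.39, adjusted p = 0.67) and *NimC3* and *NimB2* did not pass the filter. The call of *drpr* was also lost with DESeq2 (adjusted p = 0.0914) and without wasp inf. 24 hr 2 (0.64, adjusted p = 0.122), and that of *eater* with DESeq2 (adjusted p = 0.0525) and without wasp inf. 24 hr 2 (-0.48) or 3 (-0.44). *NimB4* was not called without wasp inf. 24 hr 2 (-0.40, adjusted p = 0.135). The cells without *atilla* held lymph gland progenitor markers at 764 to 1276 CPM and crystal cell markers at 41.5 to 972 CPM at that time. Of the other lists 5 of 13 receptors and opsonins were called higher and 1 lower (*Tep4*, -2.44), 4 of 10 engulfment signaling genes higher (*Rac2* first, 1.42) and 1 lower (*Pvr*, -1.10), and 6 of 8 phagosome genes higher (*Vps16A* first, 0.84) and 0 lower.

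The contrast itself was then compared between the times, as the interaction of *atilla* class and time in a fit of 6 libraries. All 8 members tested were called, 6 with a lower contrast at 48 hr and 2 with a higher one, where 10.3% of the 7395 genes tested were called higher and 8.07% lower. The classes held different cells at the 2 times, and the part of this in the contrasts was not tested. Cells with 5 or more *atilla* UMIs had a mean *atilla* level of 3272 CPM at 24 hr and 7676 CPM at 48 hr. Of these cells 254 of 510 had 20 or more *atilla* UMIs at 24 hr, and 3881 of 4807 at 48 hr. At 24 hr 102 of the 510 lay in plasmatocyte clusters. The makeup of the cells without *atilla* changed too, as given below. The contrast of *eater* was 2.72 ± 0.25 lower on the log2 scale (adjusted p = 0.000275), that of *NimC1* 2.02 ± 0.19 (adjusted p = 0.000284), of *NimC3* 1.92 ± 0.51 (adjusted p = 0.0271), of *NimB4* 1.62 ± 0.26 (adjusted p = 0.00309), of *drpr* 1.55 ± 0.18 (adjusted p = 0.000838) and of *NimB1* 0.75 ± 0.19 (adjusted p = 0.0228). *drpr* was higher in *atilla* cells at 24 hr, a call lost in thinned cells, and lower at 48 hr, and in thinned cells the difference between the times was not called either (-1.51, adjusted p = 0.0704). *NimB2* (2.91 ± 0.50, adjusted p = 0.00371) and *NimB5* (0.84 ± 0.11, adjusted p = 0.00108) had the higher contrast at 48 hr. *NimC3* missed the threshold without any 1 of the 24 hr libraries or without wasp inf. 48 hr 2 (-2 to -1.75), and *NimB1* without wasp inf. 24 hr 1 or 3 or wasp inf. 48 hr 2 (-0.71 to -0.56). In thinned cells 4 of the 8 remained called: *eater* (-2.46), *NimC1* (-1.54), *NimB4* (-1.12) and *NimB5* (0.78). Without the TMM factors the median of all genes shifted by -0.43, all calls split into 326 higher and 1944 lower instead of 763 and 597, and 8 of 8 members kept their calls and directions. *Hml* moved with the receptors (-2.02 ± 0.15), and 6 of 7 plasmatocyte markers were called lower. Of the other lists, 4 of 13 receptors and opsonins were called higher and 2 lower, 3 of 10 engulfment signaling genes higher and 2 lower, and 3 of 8 phagosome genes higher and 1 lower.

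**Figure D5:**
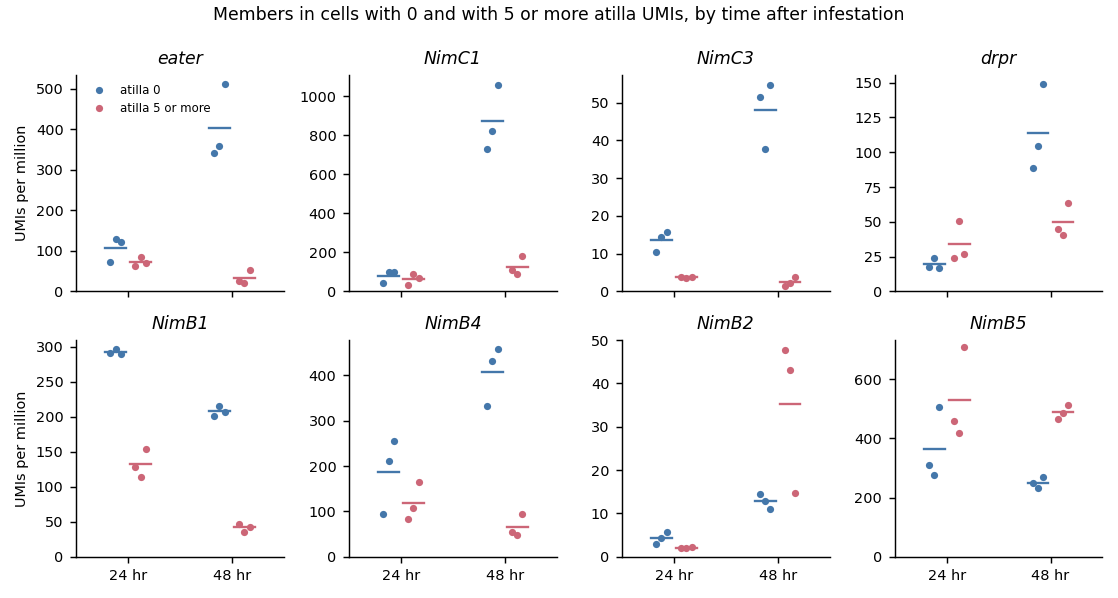
Level of 8 members in cells with 0 (blue) and with 5 or more (red) atilla UMIs at 24 and 48 hr after infestation, in CPM on linear axes that start at 0, with 1 point per library and bars for means. In cells without atilla NimC1 goes from 44.4, 100 and 96.9 CPM to 730, 824 and 1061 CPM, and in cells with 5 or more NimB2 goes from 1.93, 2.07 and 2.28 CPM to 47.8, 43.2 and 14.7 CPM.

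The times were finally compared within each class. In cells without *atilla* the receptors rose from 24 to 48 hr. *NimC1* went from 44.4, 100 and 96.9 CPM to 730, 824 and 1061 CPM, 8.34-fold (log2 3.06 ± 0.40, adjusted p = 0.00336), and *drpr* from 17.6, 23.9 and 16.9 CPM to 88.5, 104 and 149 CPM, 4.56-fold (2.19 ± 0.28, adjusted p = 0.0031). *eater* rose 2.94-fold (1.56 ± 0.33, adjusted p = 0.021) and *NimC3* 2.72-fold (1.44 ± 0.26, adjusted p = 0.0116), without overlap of the groups. *NimB1* went from 291, 297 and 290 CPM to 202, 215 and 206 CPM. By the TMM-scaled fit it fell 1.74-fold (-0.80 ± 0.18, adjusted p = 0.0254), which is more than these CPM show. *NimB2* (1.17 ± 0.35, adjusted p = 0.0763), *NimB4* (0.76 ± 0.40, adjusted p = 0.255) and *NimB5* (-0.85 ± 0.27, adjusted p = 0.0857) were not called, though *NimB5* was without wasp inf. 24 hr 1 (-1.09, adjusted p = 0.0171). In all 4 members were called higher and 1 lower of 8, where 5.75% of the 6541 genes tested were called higher and 4.36% lower.

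The number of these calls depended on the libraries, and ranged from 2 to 6 when a library was left out. It was 3 without wasp inf. 24 hr 3 or wasp inf. 48 hr 2 and 2 without wasp inf. 48 hr 3, where *NimC1* and *drpr* stayed called. *eater* lost its call in each of these 3 cases (1.66, 1.62 and 1.38), and *NimC3* without wasp inf. 48 hr 3 (1.36, adjusted p = 0.0548). *NimB1* was no longer called without wasp inf. 24 hr 2 or 3 or any 1 of the 48 hr libraries (-0.84 to -0.70), nor without the TMM factors (-0.48, adjusted p = 0.06). That scaling shifted the median of all genes by 0.30, so the log2 fold changes of this comparison are to be read against such a shift, and it changed the split of all calls from 376 higher and 285 lower to 741 higher and 165 lower. The makeup of the class changed as well. From 24 to 48 hr the summed plasmatocyte markers went from between 1000 and 2616 CPM to between 4145 and 6521 CPM, the lymph gland progenitor markers from between 764 and 1276 CPM to between 116 and 186 CPM, and the fat body markers from at most 1.91 CPM to between 70.1 and 277 CPM. Their part in the rise of the receptors was not tested. *Hml*, at 559, 1141 and 873 CPM and then at 581, 518 and 1415 CPM, was not called (-0.40 ± 0.46). Of the other lists 2 of 13 receptors and opsonins were called higher (*crq* first, 3.25) and 2 lower (*Tep4* first, -3.23), 0 of 10 engulfment signaling genes were called (4 at an unadjusted p under 0.05, and DESeq2 called 2), and 1 of 8 phagosome genes was called higher (*cathD*, 1.16).

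In cells with 5 or more *atilla* UMIs *NimB2* rose from 1.93, 2.07 and 2.28 CPM to 47.8, 43.2 and 14.7 CPM, 16.5-fold (log2 4.04 ± 0.67, adjusted p = 0.00635), from 2, 3 and 6 UMIs at 24 hr. *NimB1* fell 3.09-fold, from 128, 114 and 154 CPM to 47.4, 35.6 and 42.6 CPM (-1.63 ± 0.21, adjusted p = 0.00243). These were 2 of 8 members, where 11.8% of the 7084 genes tested were called higher and 11.3% lower. *NimB5* was level, at 460, 418 and 710 CPM and then 464, 488 and 513 CPM (-0.09 ± 0.26, 95% interval -0.69 to 0.52). *eater* (-1.12 ± 0.37, adjusted p = 0.0587) and *NimC1* (0.99 ± 0.39, adjusted p = 0.103) were not called. *eater* passed with DESeq2 (adjusted p = 0.0326) and without wasp inf. 48 hr 3 (-1.67), and *NimB4* without wasp inf. 24 hr 1 (-1.12). The fat body markers of this class went from at most 2.9 CPM to between 18.6 and 46.7 CPM. Its mean *atilla* level went from 3272 CPM to 7676 CPM, and the part of either was not tested. Of the other lists 4 of 13 receptors and opsonins were called higher (*crq* first, 2.12) and 1 lower, 2 of 10 engulfment signaling genes higher and 1 lower, and 2 of 8 phagosome genes higher.

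Over all cells, where the share of cells with 5 or more *atilla* UMIs went from 21.6%, 5.59% and 8.72% to 60.5%, 70.6% and 71.5%, 3 members were called higher and 1 lower, where 20.1% of the 7998 genes tested were called higher and 15.8% lower. *NimC1* (log2 1.56 ± 0.36, adjusted p = 0.0145), *drpr* (1.36 ± 0.26, adjusted p = 0.00707) and *NimB2* (2.77 ± 0.43, adjusted p = 0.00369) were higher at 48 hr and *NimB1* was lower (-1.85 ± 0.23, adjusted p = 0.00177). *eater*, higher at 48 hr in cells without *atilla*, was at 77.1, 125 and 115 CPM and then at 96.5, 79.5 and 142 CPM over all cells (-0.09 ± 0.34, adjusted p = 0.858). Without wasp inf. 48 hr 3 *NimC1* was not called (1.36, adjusted p = 0.0531), and without wasp inf. 24 hr 1 *NimB4* was (-0.94, adjusted p = 0.00899). Of the other lists 4 of 14 receptors and opsonins were called higher (*Itgbetanu* first, 2.65) and 1 lower (*Tep4*, -3.26), 4 of 10 engulfment signaling genes higher (*Ced-12* first, 1.69) and 1 lower (*Pvr*, -0.86), and 6 of 8 phagosome genes higher (*Rab7* first, 1.14). The larvae of the 2 times also differ in age, and time after infestation and age cannot be told apart.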

How the data were processed

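The authors deposited raw UMI counts, as whole numbers, for each gene of each cell. Per the labels and the study's methods, 10X Chromium reads were counted with Cell Ranger (3.1.0 in the submitters' processing notes, while the study's methods name an earlier version), inDrops reads with bcbio-nextgen, RapMap and umis against FlyBase r6.21 with EGFP and GAL4 added, and Drop-seq reads with STAR and the Drop-seq tools on an Ensembl annotation. The authors filtered and merged the cells of 11 libraries with Seurat and Harmony, and the raw tables of single libraries were not used here.

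Counts were summed per library and class of cells. From the Drop-seq tables, a cell was kept if it had 500 UMIs and 200 genes or more and no more than 30% of UMIs from mitochondrial genes, and a class entered with at least 10 cells of a library. No doublet caller was run. CPM were taken to log2 with a pseudocount of 1. Sums were compared with edgeR 4.0.16 (quasi-likelihood, TMM, its filter on low counts, Benjamini-Hochberg) in R 4.3.3, which was tested on simulated data, and with DESeq2 1.42.0 as an alternative. Other alternatives were no filter, no TMM factors, each library left out, cells thinned, other *atilla* thresholds and the replicate number as a block. Tables were made in Python 3.11.15 with pandas 2.3.3 and positions read from Ensembl 115. The members, gene lists and tests were chosen with earlier results of these data known.

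The text names all 10 members, *NimA*, *NimB3* and *He*, for each list of genes the called gene with the largest change in each direction, and the 3 genes most like each member across clusters. Replicate numbers were taken to pair unwounded with wounded libraries, since those of the same number deviated together in plasmatocyte clusters (r between 0.801 and 0.89 about the mean of the group). Libraries of another number but the same technology had r between 0.528 and 0.66. About the mean of group and technology r was 0.665 in 10X Chromium and 0.466 in inDrops. With so few libraries, other numbers there mirror these values (-0.665 and -0.466), so each technology adds a single value. The main wound fits held technology and left this pairing out, so their adjusted p-values are to be read beside the fits with the block. The inDrops libraries of the same number were multiplexed in 1 sample.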

Additional observations from a re-analysis of the deposited data

Results flagged for a closer look

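Of 55 sets of 4 libraries (a member in a class and condition), 5 held a library far from the other three, and chance gives about 1 in 20. *NimC3* in crystal cell clusters was at 25.3 CPM in unwounded 1, from 5 UMIs, and at 0 in the other three. *eater* in crystal cell clusters was at 397 CPM in unwounded 3. *NimC4* was at 7.79 CPM in the lamellocyte clusters of unwounded 3 and at 7.13 CPM in the plasmatocyte clusters of unwounded 4, each from 4 UMIs. *NimB2* in lamellocyte clusters was at 52 CPM in wounded 3. For *NimC3* in crystal cell clusters and *NimC4* in lamellocyte clusters the other libraries were at 0. There the rule flags any count, so the rate of 1 in 20 does not apply to them.

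The contrast of cells with 5 or more against 0 *atilla* UMIs differed between 48 and 24 hr by the interaction test for *eater* (-2.72), *NimC1* (-2.02), *NimC3* (-1.92), *NimB1* (-0.75), *NimB4* (-1.62), *drpr* (-1.55), *NimB2* (2.91) and *NimB5* (0.84), all on the log2 scale. The makeup of both classes differed between the times, and its part was not tested.

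In data outside the comparisons, the 40 non-hemocyte cells of the merged table held 13 UMIs of *drpr* (34 CPM of 382546 UMIs), and 1 UMI each of *eater* and *NimB5*.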

How the results depend on the processing

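The 34 member results that were called kept their direction in all 414 alternative values computed for them, and 48 of these missed the threshold. Of 675 alternative values of members that were not called, 28 passed the threshold and 74 changed sign, with 0 called among those that changed sign and the largest at 0.39. The 32 alternatives for differences between clusters moved by less than their spread. The cause of the changes below was not tested.

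The number of members called moved by more than 1.5 times in these cases. In lamellocyte clusters, wounded against unwounded, it was 0 with DESeq2, within the 10X Chromium or the inDrops libraries and without the technology covariate, 2 without the filter, 2 with the replicate block, which changed no other call of a member in the wound comparisons, and 0 to 2 with a library left out. For 48 against 24 hr it was 2 to 6 in cells without *atilla* with a library left out, and 6 in cells with 5 or more without the filter. For the *atilla* contrast at 24 hr it was 2 with no replicate block and 3 to 6 with a library left out, and for the contrast at 48 minus 24 hr it was 4 in thinned cells and 6 to 8 with a library left out.

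Values that changed sign are log2 fold changes. In plasmatocyte clusters, wounded against unwounded, *NimB4* was 0.02 without TMM factors, 0.01 without the filter or the technology covariate, and 0.03 with the replicate block or in 10X Chromium. *NimB5* was -0.01 with DESeq2 or without the covariate and -0.09 in inDrops, and in 10X Chromium *NimC1* was -0.02 and *drpr* -0.07. With a library left out *NimC1* ranged from -0.02 to 0.27, *NimC4* from -0.05 to 0.48, *NimB4* from -0.15 to 0.15, *NimB5* from -0.06 to 0.07 and *drpr* from -0.04 to 0.40. In all hemocytes *NimB2* was -0.07 in inDrops, *NimB5* was 0.00 without TMM factors and 0.07 in 10X Chromium, and *drpr* was -0.12 there. The ranges were -0.03 to 0.26 for *NimC1*, -0.03 to 0.27 for *NimB2*, -0.22 to 0.07 for *NimB4*, -0.10 to 0.01 for *NimB5* and -0.05 to 0.33 for *drpr*. In lamellocyte clusters *eater* was -0.03 with DESeq2 and -0.12 in 10X Chromium, *NimC1* was -0.04 in 10X Chromium, *NimB5* was 0.00 without the filter or with the replicate block, and *drpr* was 0.18 in inDrops, and the ranges were -0.11 to 0.27 for *eater*, -0.17 to 0.12 for *NimB5* and -0.25 to 0.12 for *drpr*. In crystal cell clusters *NimB1* was 0.39 in 10X Chromium, *NimB2* was 0.07 without the filter and 0.15 in inDrops, and *NimB5* was 0.03 with DESeq2, 0.17 without the filter, 0.02 in 10X Chromium and 0.00 in inDrops, with ranges of -0.31 to 0.16 for *NimB2* and -0.10 to 0.13 for *NimB5*. For 48 against 24 hr the ranges over all cells were -0.37 to 0.16 for *eater*, -0.43 to 0.03 for *NimC3* and -0.08 to 0.45 for *NimB5*. In cells with 5 or more *atilla* UMIs *NimB5* ranged from -0.27 to 0.31 and was 0.02 without the filter. *NimC1* in the 24 hr contrast was 0.04 at 2 or more *atilla* UMIs.

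Over all genes, 10 calls in plasmatocyte clusters became 23 with DESeq2, 106 with the replicate block, 0 in 10X Chromium, 1 without the covariate, 6 without PM6, PM7 and PM12 and 2 to 19 with a library left out. The 25 in all hemocytes became 57, 153, 0 and 1 by the first 4 of these, 15 without the filter and 2 to 32. The 99 in lamellocyte clusters became 195 without the filter, 272 with the block, 24 in inDrops, 22 without the covariate, 60 in LM1 and 93 to 150, and the 2 in crystal cell clusters became 27, 31, 9 and 0 by the first 4 of these, 1 without TMM factors, 0 in 10X Chromium and 0 to 7. For 48 against 24 hr, 2871 over all cells became 1449 to 3737, 661 in cells without *atilla* became 1665 with DESeq2, 1855 without the filter and 330 to 1446, and 1636 in cells with 5 or more became 1073 with the block and 557 to 1707. The 1740 of the 24 hr contrast became 331 with no replicate block, 968 in thinned cells and 994 to 1297, and the 1360 of the interaction became 2270 without TMM factors, 378 in thinned cells and 783 to 1300.

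The wasp replicate numbers did not pair the libraries (r between -0.149 and 0.045). A block on them made *NimB1* in cells without *atilla* miss the threshold (-0.79) and *eater* in cells with 5 or more pass it (-1.19), and changed no other call of a member. Leaving out PM6, PM7 and PM12, keeping LM1 alone, and leaving out the 24 hr cells outside the merged hemocyte clusters were chosen after seeing the data. In LM1 *NimB1* was not called (-1.18) and *NimC4* was (3.12). *NimC2*, *NimC3* and *NimC4* are limited by depth, with 21, 984 and 242 UMIs in the merged table.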
